A study of Mus musculus with 10 samples.

Results

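Chromatin accessibility at 9 genes of the Notch pathway (Notch1, Notch2, Notch3, Jag1, Rbpj, Hes1, Hey1, Dtx1 and Ovol2) was followed in the iNKT1 and iNKT2 subsets of thymic invariant natural killer T (iNKT) cells, lymphocytes that recognise lipid antigens presented by CD1d. A region of open chromatin was taken as a member when it overlapped the body of one of these genes or lay within 50 kb of its annotated transcription start (GENCODE M21, mouse build GRCm38/mm10), which gave 110 of the 94823 regions in the table. Rbpj held 24 of them, Notch2 20, Dtx1 17, Hey1 12, Notch1 10, Hes1 8, Notch3 7, Ovol2 7 and Jag1 5. Of the 110 regions, 74 overlapped the body of the member gene, 84 had the member's start as their nearest protein-coding start, and 9 lay in the body of another protein-coding gene.

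The assay was ATAC-seq: a transposase cuts DNA where chromatin is open and leaves an adapter there, so that the number of insertions in a region reads its accessibility. It was applied to 10 libraries. The groups were iNKT1 cells of BALB/c mice (n = 2), iNKT1 cells of SKG mice (n = 2), iNKT2 cells of BALB/c mice (n = 3) and iNKT2 cells of SKG mice (n = 3), all from the thymus. The comparisons ask how the subsets differ and how weaker TCR signalling changes them. SKG mice carry a hypomorphic mutation of Zap70, a kinase that transmits T cell receptor (TCR) signals, on the BALB/c background, and the mutation was not restricted to iNKT cells. By the methods of the study the mice were young adults and the subsets were sorted as CD27+ cells with (iNKT1) or without (iNKT2) surface CD122. The sources used here do not say whether a library holds 1 animal or a pool, nor that replicates came from separate animals, so the p-values measure only the spread between these libraries.

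Notch receptors are cut within the membrane after a neighbouring cell presents a ligand such as Jagged 1, and the freed intracellular domain enters the nucleus, where it binds the DNA-binding protein RBPJ and switches on targets that include the repressors Hes1 and Hey1. Deltex 1, the product of Dtx1, is an E3 ubiquitin ligase that acts on the pathway, and Ovol2 is a zinc-finger transcription repressor that is studied mainly in epithelial cells. In the thymus Notch1 is known for committing progenitors to the T cell lineage. An open region upstream of or within a gene may be a regulatory element, but accessibility is not transcription, and no RNA was examined here.

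The member regions that were lower in SKG than in BALB/c iNKT2 cells carried the difference between genotypes, and the central 300 bases of the one with the smallest adjusted p at each of 6 genes are shown so that the DNA behind the values can be seen. The reference sequence (RefSeq, GRCm38) is printed on the plus strand, and capitals mark the letters of a searched motif: TGTGGT for RUNX factors or TGGGAA for RBPJ, on either strand (their reverse complements are ACCACA and TTCCCA). The coordinates are chr2:144343167-144343466 for Ovol2, chr16:30024683-30024982 for Hes1, chr3:8662141-8662440 for Hey1, chr5:53416860-53417159 for Rbpj, chr3:98043082-98043381 for Notch2 and chr2:137109926-137110225 for Jag1.
Ovol2: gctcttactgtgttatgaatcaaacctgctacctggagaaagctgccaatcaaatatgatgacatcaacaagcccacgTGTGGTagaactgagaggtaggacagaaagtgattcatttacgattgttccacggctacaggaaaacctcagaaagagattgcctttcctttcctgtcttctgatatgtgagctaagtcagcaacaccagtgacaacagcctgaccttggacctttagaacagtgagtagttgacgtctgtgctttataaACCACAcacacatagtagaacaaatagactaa
Hes1: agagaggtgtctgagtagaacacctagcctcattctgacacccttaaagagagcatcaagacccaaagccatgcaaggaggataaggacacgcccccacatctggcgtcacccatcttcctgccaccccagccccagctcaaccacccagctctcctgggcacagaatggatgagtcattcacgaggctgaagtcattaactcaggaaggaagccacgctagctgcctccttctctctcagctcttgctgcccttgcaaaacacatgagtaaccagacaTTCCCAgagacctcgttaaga
Hey1: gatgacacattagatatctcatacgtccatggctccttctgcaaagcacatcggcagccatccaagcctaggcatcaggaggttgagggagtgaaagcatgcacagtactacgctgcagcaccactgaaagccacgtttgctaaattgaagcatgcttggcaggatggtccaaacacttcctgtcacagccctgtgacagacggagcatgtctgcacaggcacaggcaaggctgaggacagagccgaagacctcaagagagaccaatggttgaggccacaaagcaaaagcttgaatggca
Rbpj: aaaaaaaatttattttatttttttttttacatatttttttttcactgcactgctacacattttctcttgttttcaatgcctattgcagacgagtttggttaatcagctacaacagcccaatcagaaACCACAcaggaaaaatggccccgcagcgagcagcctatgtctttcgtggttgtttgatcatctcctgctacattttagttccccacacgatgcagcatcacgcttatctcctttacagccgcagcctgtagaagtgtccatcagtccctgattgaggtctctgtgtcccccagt
Notch2: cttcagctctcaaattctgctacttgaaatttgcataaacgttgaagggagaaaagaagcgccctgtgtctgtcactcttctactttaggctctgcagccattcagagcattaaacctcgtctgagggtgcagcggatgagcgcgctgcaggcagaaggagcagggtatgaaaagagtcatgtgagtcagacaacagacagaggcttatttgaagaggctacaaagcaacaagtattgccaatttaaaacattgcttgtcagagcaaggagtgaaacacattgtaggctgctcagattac
Jag1: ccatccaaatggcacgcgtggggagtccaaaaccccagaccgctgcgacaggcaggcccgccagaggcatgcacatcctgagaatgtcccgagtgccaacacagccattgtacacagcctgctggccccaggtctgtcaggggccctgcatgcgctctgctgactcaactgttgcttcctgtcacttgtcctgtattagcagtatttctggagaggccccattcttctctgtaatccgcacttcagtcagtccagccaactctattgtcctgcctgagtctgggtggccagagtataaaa

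The libraries held 14988590 to 36342635 insertions in regions. Levels are insertions in a region relative to the library's total after TMM scaling (CPM), log2 changes are given with their SE, and p-values are from edgeR's quasi-likelihood test, adjusted over all 94823 regions by the Benjamini-Hochberg method. A region was called when its adjusted p was under 0.01 and it differed at least 4-fold. Start regions of the 4 iNKT1 markers (Tbx21, Ifng, Il2rb, Cxcr3) summed to 196 to 220 CPM in iNKT1 libraries and 43.8 to 63.8 CPM in iNKT2 libraries. The 5 iNKT2 markers separated the subsets less, with 67.8 to 78.1 CPM in iNKT1, 73.0 to 83.5 CPM in BALB/c iNKT2 and 87.0 to 119 CPM in SKG iNKT2 libraries. Of these, Il17rb and Ccr7 had the higher means in iNKT2 cells of both genotypes. Il4 had the lower means there, 7.09 against 10.9 CPM in BALB/c and 5.28 against 15.5 CPM in SKG mice. Zbtb16 and Gata3 were lower in iNKT2 cells of BALB/c mice (26.3 against 33.6 and 2.87 against 3.47 CPM). In SKG mice both were higher (30.9 against 29.2 and 4.30 against 3.50 CPM). The start regions of 3 markers of iNKT17 cells, a subset that makes IL-17 (Il17a, Il23r and Il1r1), summed to 0.128 to 0.385 CPM in iNKT1 libraries, 12.5 to 19.0 CPM in BALB/c iNKT2 libraries and 9.57 to 10.0 CPM in SKG iNKT2 libraries; the Il17a start alone had mean levels of 5.46 CPM in BALB/c and 1.16 CPM in SKG iNKT2 cells. The iNKT17 values thus moved with both the subset and the genotype contrasts given here, and their part in the results below was not tested. Markers of double-positive thymocytes (0 of 5) and B cells (0 of 4) had no start region, myeloid markers had 2 of 4 and thymic epithelial markers 1 of 4. The sums of 3 lists were lower in iNKT2 than in iNKT1 libraries: 57.0 to 85.8 against 115 to 126 CPM for 4 shared T cell markers (Cd2 alone had means of 32.5 CPM in iNKT1 and 2.78 CPM in iNKT2 cells of BALB/c mice), 3.30 to 4.66 against 5.78 to 8.47 CPM for the myeloid and 3.81 to 5.85 against 7.71 to 9.71 CPM for the epithelial list. Their part in the results between subsets was not tested. Replicate 1 of iNKT2 cells stood apart from the other replicates in both genotypes. In these bulk libraries, fewer cells with an open region and less opening per cell cannot be told apart.

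Between subsets in BALB/c mice, 20 of the 110 regions were called higher in iNKT2 cells and 9 were called lower. The higher regions lay at Hey1 (9), Notch2 (9), Rbpj (1) and Ovol2 (1), and the lower regions at Dtx1 (7) and Rbpj (2). The members' shares were 18.2% higher and 8.18% lower, against 15.5% and 6.36% of all regions, so as a set they were close to the background while single genes were far to one side of it. Without the fold threshold, 32 member regions were higher and 23 lower, where the background was 25.7% and 23.4%. The median log2 change was 0.36 over the members and 0.06 over all regions.

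In SKG mice, 9 regions were called higher in iNKT2 than in iNKT1 cells and 10 were called lower. Notch2 held 5 of the higher regions and Hey1 2, with 1 each at Rbpj and Ovol2, and Dtx1 held 6 of the lower regions, with 3 at Rbpj and 1 at Notch1. The shares were 8.18% higher and 9.09% lower, against 10.2% and 6.96% of all regions. By adjusted p alone 24 were higher and 19 lower (background 18.4% and 17.6%), and the median log2 change was 0.20 over the members and 0.14 over all regions. The subset contrasts of the 2 genotypes share no library, and 7 regions were called higher in both (35% of the 20 in BALB/c, 77.8% of the 9 in SKG) and 8 lower in both (88.9% of the 9 in BALB/c, 80% of the 10 in SKG). The same overlap was not computed over all regions, so these shares cannot be read as particular to the members.

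**Figure D1:**
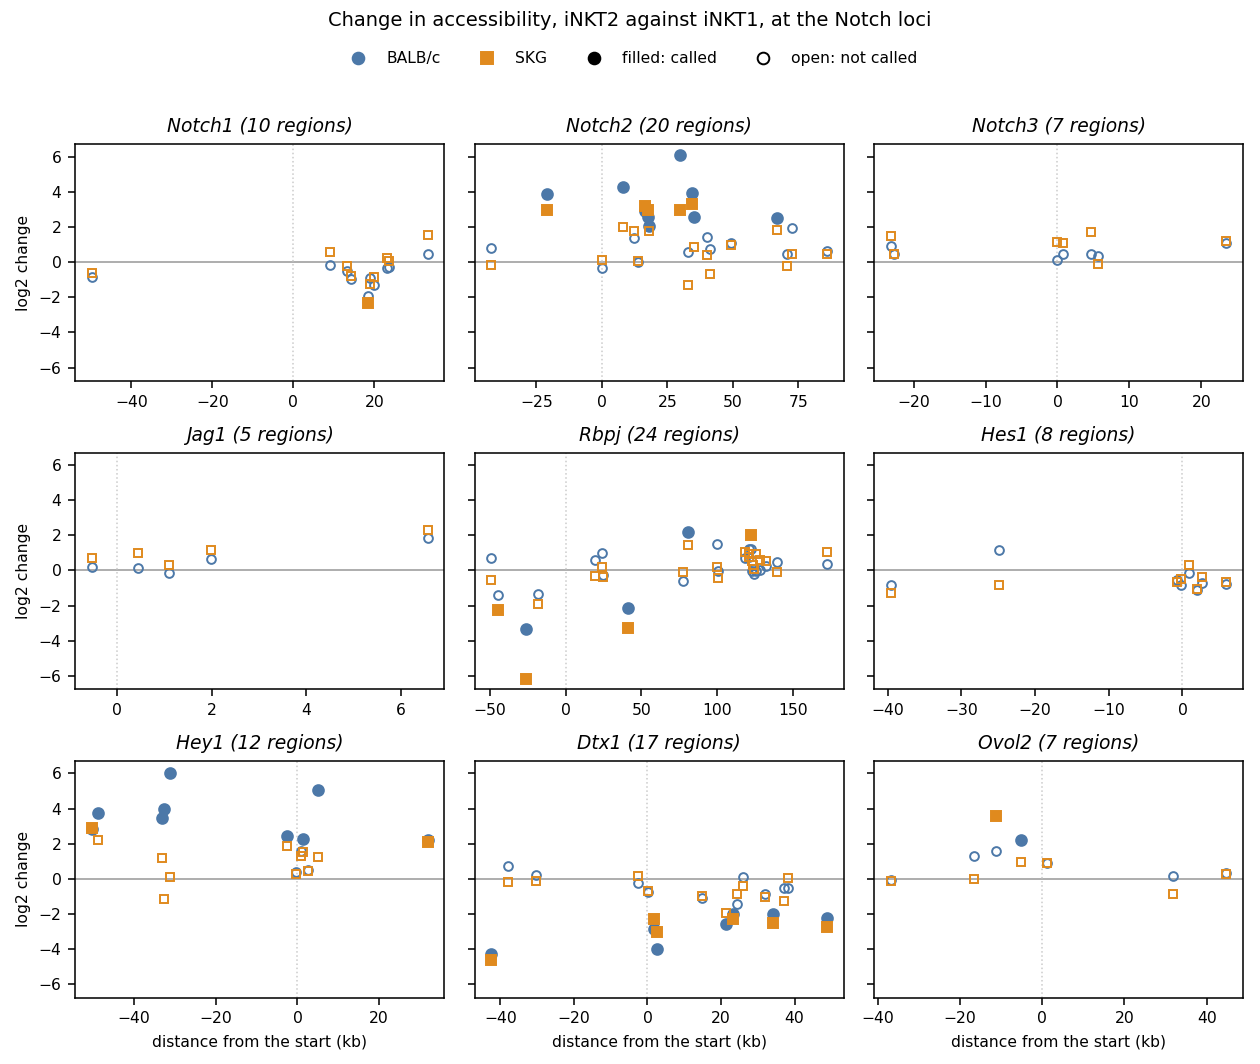
Log2 change of each member region between iNKT2 and iNKT1 cells (vertical axis) against its distance from the gene's annotated start in kb (horizontal axis, negative upstream), with 1 panel per gene, circles for BALB/c and squares for SKG mice, and filled symbols for called regions. All 12 Hey1 regions lie above 0 in BALB/c mice, Notch2 holds 9 called regions above 0, and the 7 called Dtx1 regions lie below 0.

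Between genotypes the differences ran to lower values in SKG cells. In iNKT2 cells 10 regions were called lower in SKG than in BALB/c mice and 0 were called higher. The lower regions lay at Hey1 (4), Ovol2 (2), Notch2 (1), Jag1 (1), Rbpj (1) and Hes1 (1). They made up 9.09% of the members, against 4.73% of all regions that were lower and 0.252% that were higher. None of the 10 overlapped an annotated start: 7 lay upstream of the gene, 2 in an intron and 1 downstream. At an unadjusted p under 0.05, 13 member regions were higher and 40 lower, against 15483 and 20053 of all 94823 regions. Beside the count of 0 higher regions, DESeq2 called 1 higher, limma-voom with quantile normalization 2 and limma-voom with TMM 0. Without the fold threshold 24 were lower and 3 higher (background 10.1% and 4.02%), and the median log2 change was -0.21 over the members and 0.01 over all regions. With the replicate number as a block, all 10 calls were kept. The main fit did not model pairing. The block was fitted because of the check described under processing, which set only replicate 1 apart.

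The study singled out Hey1, Jag1, Ovol2 and Rbpj from these same libraries, so their share is not independent evidence. Those 4 genes held 8 of the 10 lower regions (16.7% of their 48 regions), and the other 5 genes held 2 (3.23% of their 62 regions).

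In iNKT1 cells, 1 region, at Ovol2, was called lower in SKG than in BALB/c mice and 0 were called higher, where the background was 0.732% lower and 0.281% higher. At an unadjusted p under 0.05, 11 member regions were higher and 20 lower, against 6053 and 10143 of all 94823 regions. DESeq2 and limma-voom with either normalization called 0 higher. By adjusted p alone 5 were lower (3 at Jag1, 1 at Hes1 and 1 at Ovol2) and 0 higher, against 1.42% and 0.662% of all regions. The median log2 change was -0.15 over the members and -0.03 over all regions.

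Whether the genotype difference itself differed between subsets was tested as an interaction of genotype and subset. With edgeR 0 of the 110 regions passed, where 0.529% of all regions did. At an unadjusted p under 0.05 there were 25 member regions (8 positive, 17 negative), against 18812 of all 94823 regions (9653 positive, 9159 negative). DESeq2 called 4 of the 110 regions and limma-voom called 0 with either normalization. The fit with the replicate block called 2 (the shares of all regions in these fits are not given here). A call in iNKT2 cells alone is therefore not shown to be particular to that subset.

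**Figure D2:**
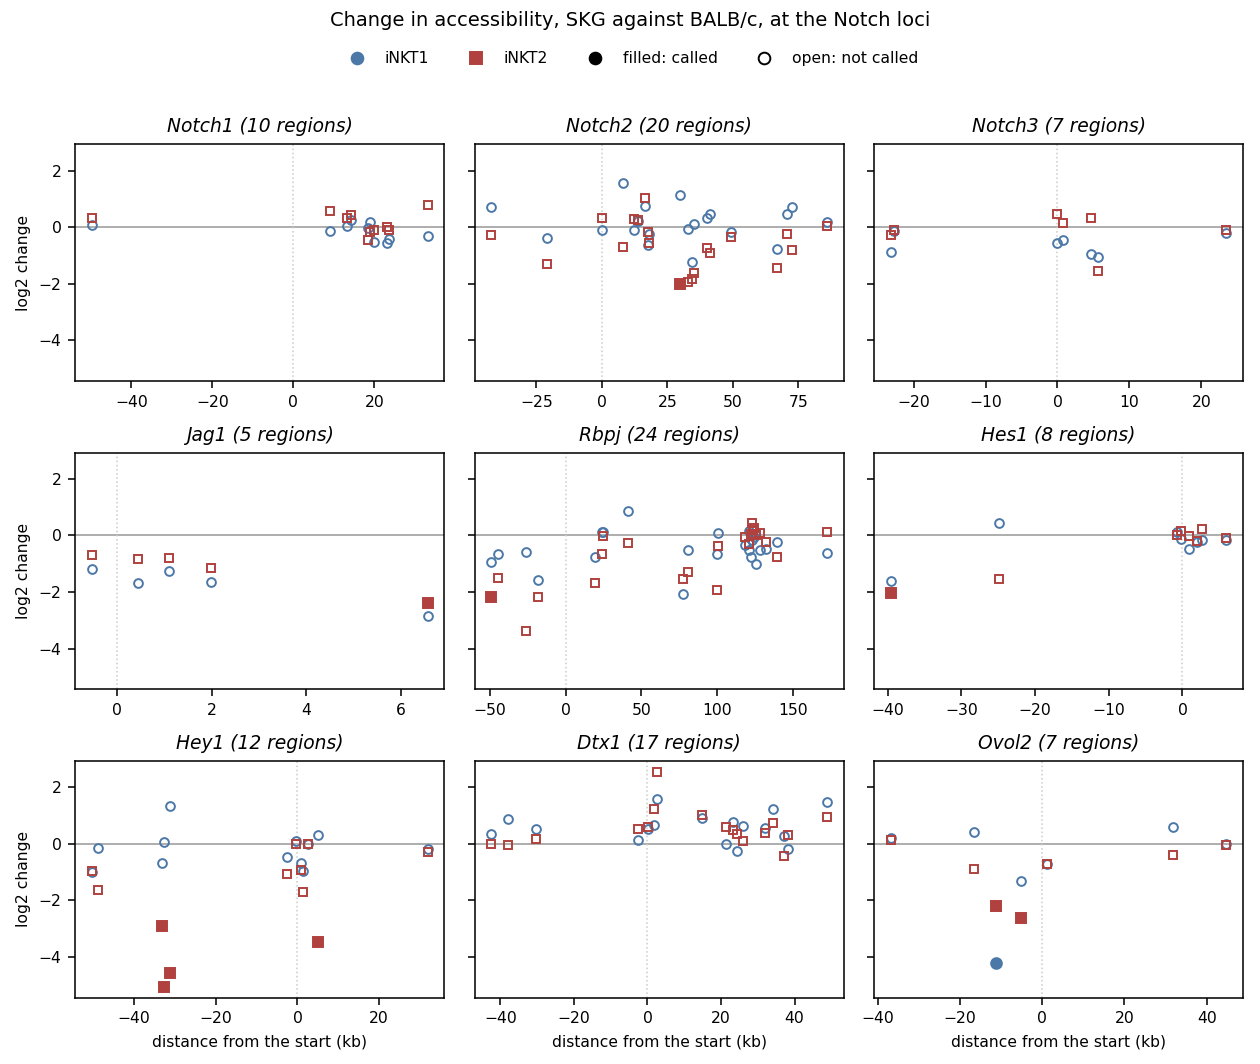
Log2 change of each member region between SKG and BALB/c mice (vertical axis) against its distance from the gene's annotated start in kb (horizontal axis, negative upstream), with 1 panel per gene, blue circles for iNKT1 and red squares for iNKT2 cells, and filled symbols for called regions. All 12 Hey1 regions lie below 0 in iNKT2 cells, whereas 14 of the 17 Dtx1 regions lie above 0 in each subset.

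Among the receptors, Notch2 opened in iNKT2 cells. Of its 20 regions 19 had positive log2 changes between the BALB/c subsets, 9 were called higher and 0 lower, and in SKG mice 5 were called higher. The region at its start (chr3:98013061-98014242) did not take part: it held 55.2 and 54.9 CPM in BALB/c iNKT1, 53.1 and 50.2 CPM in SKG iNKT1, 39.2, 42.6 and 50.8 CPM in BALB/c iNKT2, and 52.3, 56.5 and 57.4 CPM in SKG iNKT2 libraries. Its 2 BALB/c groups did not overlap, with the iNKT2 libraries below the iNKT1 libraries, and the difference was not called (log2 change -0.32, adjusted p = 0.0468, and 0.09 under limma-voom with quantile normalization). Of the 9 higher regions, 8 lay within the gene body and 1 lay 21 kb upstream (chr3:97992367-97992668), with 0.0896 and 0.176 CPM in BALB/c iNKT1 and 1.73, 1.83 and 2.27 CPM in BALB/c iNKT2 libraries (log2 change 3.88 ± 0.58).

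The intronic region 29.7 kb inside Notch2 (chr3:98043064-98043399) was nearly closed in iNKT1 cells. It held 0.0896 and 0.0441 CPM in BALB/c iNKT1, 0.257 and 0.0642 CPM in SKG iNKT1, 5.27, 5.71 and 4.53 CPM in BALB/c iNKT2, and 1.66, 0.505 and 1.62 CPM in SKG iNKT2 libraries. All iNKT2 libraries were above all iNKT1 libraries, and all BALB/c iNKT2 libraries were above all SKG iNKT2 libraries. The log2 change between subsets was 6.10 ± 0.59 in BALB/c mice (adjusted p = 5.48e-07) and 2.94 ± 0.66 in SKG mice (adjusted p = 0.00171), and SKG iNKT2 cells were lower than BALB/c iNKT2 cells by a log2 change of -2.03 ± 0.34 (adjusted p = 0.00046). The interaction was -3.15 (adjusted p = 0.157). Some of these calls did not hold in every fit: the genotype call was lost without SKG iNKT2 replicate 2 (log2 change -1.65), the SKG subset call was lost without SKG iNKT1 replicate 2 (2.28, adjusted p = 0.0352) and under limma-voom with quantile normalization (1.81, adjusted p = 0.0893) or TMM (2.80, adjusted p = 0.0407), and rose to 4.21 without SKG iNKT1 replicate 1, and the BALB/c subset change was 6.75 without BALB/c iNKT1 replicate 1.

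Other intronic Notch2 regions opened in iNKT2 cells of both genotypes without a genotype call. The region 16.5 kb inside the gene (chr3:98029858-98030253) held 0.269 and 0.397 CPM in BALB/c iNKT1, 0.257 and 0.834 CPM in SKG iNKT1, 2.63, 3.09 and 1.61 CPM in BALB/c iNKT2, and 5.74, 3.90 and 5.39 CPM in SKG iNKT2 libraries. Here the SKG iNKT2 libraries were the highest of all, and the log2 changes between subsets were 2.91 ± 0.44 in BALB/c and 3.19 ± 0.44 in SKG mice (4.26 without SKG iNKT1 replicate 2 and 2.58 without SKG iNKT1 replicate 1). Between the iNKT2 genotypes the change of 1.02 missed the threshold (adjusted p = 0.0171). About a kilobase further on (chr3:98030858-98031203), the levels were 0.687 and 0.926 CPM in BALB/c iNKT1, 0.450 and 0.577 CPM in SKG iNKT1, 4.36, 4.58 and 5.03 CPM in BALB/c iNKT2, and 4.07, 4.78 and 3.37 CPM in SKG iNKT2 libraries. The iNKT2 groups overlapped there, and the changes between subsets were 2.54 ± 0.28 in BALB/c (adjusted p = 1.7e-06) and 2.98 ± 0.33 in SKG mice (adjusted p = 2.84e-06).

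Neighbouring stretches of the Notch2 body were lower in SKG iNKT2 cells below the 4-fold mark. A coding exon 34.4 kb from the start (chr3:98047736-98048063) held 0.209 and 0.0882 CPM in BALB/c iNKT1, 0.128 and 0 CPM in SKG iNKT1, 2.23, 2.54 and 2.64 CPM in BALB/c iNKT2, and 0.981, 0.276 and 0.742 CPM in SKG iNKT2 libraries. All BALB/c iNKT2 libraries were above all SKG iNKT2 libraries (log2 change -1.84, adjusted p = 0.00432), and the change between BALB/c subsets was 3.93 ± 0.59 (4.76 without BALB/c iNKT1 replicate 1). In SKG mice the subset call rested on 50 insertions in iNKT2 against 2 in iNKT1 libraries, a ratio of 11.1 after scaling (95% interval 2.91 to 94.1, counting error only), and was lost when either SKG iNKT1 library was left out (adjusted p = 0.0115 without replicate 1 and 0.0719 without replicate 2). The intronic region 33.0 kb from the start differed between iNKT2 genotypes by -1.95 (adjusted p = 5.02e-05), with 8.06, 5.61 and 7.09 CPM in BALB/c and 2.32, 1.52 and 1.35 CPM in SKG libraries, and had 5.08 and 4.28 CPM in BALB/c iNKT1 and 5.4 and 3.46 CPM in SKG iNKT1 libraries. Only its SKG iNKT2 libraries stood below the rest. The interaction there was -1.87 (adjusted p = 0.0152), and without SKG iNKT2 replicate 1 it was called (-2.17, adjusted p = 0.00343).

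Notch1, the receptor that drives T cell commitment, leaned the other way. Of its 10 regions, 5 were lower and 0 higher in BALB/c iNKT2 than in iNKT1 cells by adjusted p, and 0 passed the 4-fold mark. The clearest was an exonic region 18.4 kb inside the gene (chr2:26498106-26498506), with 27.9 and 20.8 CPM in BALB/c iNKT1, 23.1 and 24.2 CPM in SKG iNKT1, 8.56, 5.08 and 5.81 CPM in BALB/c iNKT2, and 6.92, 3.31 and 3.71 CPM in SKG iNKT2 libraries. Every iNKT2 library was below every iNKT1 library, and the genotypes overlapped in iNKT2 cells. The log2 change between subsets was -2.31 ± 0.28 in SKG mice (adjusted p = 6.28e-06) and -1.91 ± 0.27 in BALB/c mice (adjusted p = 1.88e-05), the second of which passed the 4-fold mark without BALB/c iNKT1 replicate 2 (-2.10) or without BALB/c iNKT2 replicate 1 (-2.15). An intronic region 33.1 kb inside Notch1 was 1 of the 3 member regions that were higher in SKG iNKT2 cells by adjusted p alone (log2 change 0.79, adjusted p = 0.00916), with 7.56, 6.72 and 4.74 CPM in BALB/c and 13.0, 9.74 and 10.0 CPM in SKG libraries.

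None of the 7 regions of Notch3, a receptor best known from vascular smooth muscle and thymocytes, was called in any of the 4 comparisons. The region at its start (chr17:32166760-32167068) held 1.46 and 0.970 CPM in BALB/c iNKT1, 0.835 and 0.834 CPM in SKG iNKT1, 1.07, 1.56 and 1.36 CPM in BALB/c iNKT2, and 2.56, 1.70 and 1.01 CPM in SKG iNKT2 libraries. The BALB/c groups overlapped. By adjusted p alone, 3 of its regions were higher in iNKT2 cells of SKG mice and 1 in BALB/c mice, and an intronic region 5.66 kb from the start was lower in SKG than in BALB/c iNKT2 cells (log2 change -1.54, adjusted p = 0.00161), with 3.23, 2.35 and 3.05 CPM against 1.40, 0.735 and 0.674 CPM.

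Jag1 encodes the ligand Jagged 1, and all 5 of its regions had lower means in SKG cells of both subsets. The region at its start (chr2:137116629-137117720) held 73.0 and 82.4 CPM in BALB/c iNKT1, 30.3 and 38 CPM in SKG iNKT1, 72.4, 91.8 and 104 CPM in BALB/c iNKT2, and 34.4, 69.8 and 60.7 CPM in SKG iNKT2 libraries. The genotypes did not overlap in either subset, and SKG iNKT2 replicate 1 was the lowest of its group. The log2 changes were -1.19 ± 0.26 in iNKT1 (adjusted p = 0.0129) and -0.70 ± 0.21 in iNKT2 cells (adjusted p = 0.0198), and neither passed.

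Downstream of that start, Jag1 regions were lower in SKG cells by adjusted p alone. The intronic region 2.00 kb inside the gene (chr2:137114148-137115150) held 21.5 and 24.4 CPM in BALB/c iNKT1, 7.07 and 7.57 CPM in SKG iNKT1, 32.2, 37.6 and 40.1 CPM in BALB/c iNKT2, and 10.3, 19.9 and 19.8 CPM in SKG iNKT2 libraries. The genotypes were apart in both subsets, by -1.65 ± 0.26 in iNKT1 (adjusted p = 0.00157) and -1.15 ± 0.20 in iNKT2 cells (adjusted p = 0.000623). Both coding-exon regions nearer the start gave -1.67 and -1.25 in iNKT1 and -0.85 and -0.78 in iNKT2 cells, with adjusted p from 0.00208 to 0.00968. The only Jag1 call was at an intronic region 6.57 kb inside the gene (chr2:137109926-137110225), which had 0.747 and 0.176 CPM in BALB/c iNKT1, 0 and 0.128 CPM in SKG iNKT1, 1.98, 1.11 and 2.19 CPM in BALB/c iNKT2, and 0.208, 0.276 and 0.607 CPM in SKG iNKT2 libraries. All BALB/c iNKT2 libraries were above all SKG iNKT2 libraries (log2 change -2.38 ± 0.56, adjusted p = 0.0057), a call that was lost without BALB/c iNKT2 replicate 1 (-2.28, adjusted p = 0.0103) or replicate 3 (-2.26, 0.0249) and without SKG iNKT2 replicate 1 (-2.04, 0.0191) or replicate 2 (-2.27, 0.0246). Between iNKT1 genotypes it rested on 2 insertions in SKG against 29 in BALB/c libraries, an 8.04-fold ratio (95% interval 2.03 to 69.6), and was not called (adjusted p = 0.183).

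Rbpj, which encodes the DNA-binding protein shared by all Notch receptors, had regions that moved in both directions. Its distances are from the GENCODE start (chr5, position 53466152), which lies far upstream of the RefSeq starts (positions 53590346 and 53590486), so regions called upstream here are much farther from the latter. With RefSeq starts, 9 member regions in place of 10 were called lower in SKG iNKT2 cells. An upstream region 49.1 kb from its start (chr5:53416845-53417175) held 1.40 and 1.81 CPM in BALB/c iNKT1, 0.642 and 1.03 CPM in SKG iNKT1, 2.16, 2.57 and 3.01 CPM in BALB/c iNKT2, and 0.505, 0.597 and 0.607 CPM in SKG iNKT2 libraries. BALB/c libraries were above SKG libraries in both subsets, and in iNKT2 cells the log2 change was -2.19 ± 0.31 (adjusted p = 0.000112). A broader region 44.9 kb upstream (chr5:53420767-53421782) fell with subset and genotype, with 39.3 and 33.5 CPM in BALB/c iNKT1, 22.0 and 24.4 CPM in SKG iNKT1, 15.2, 13.4 and 12.5 CPM in BALB/c iNKT2, and 4.99, 5.46 and 3.98 CPM in SKG iNKT2 libraries. None of the 4 groups overlapped there. The change between SKG subsets was -2.26 ± 0.17 (adjusted p = 7.69e-08), that between BALB/c subsets was -1.41 and that between iNKT2 genotypes was -1.50 ± 0.16 (adjusted p = 8.05e-06).

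A further pair of Rbpj regions closed in iNKT2 cells of both genotypes. The one 26.2 kb upstream (chr5:53439785-53440084) held 2.36 and 1.72 CPM in BALB/c iNKT1, 1.61 and 1.15 CPM in SKG iNKT1, 0.157, 0.132 and 0.330 CPM in BALB/c iNKT2, and 0, 0 and 0.0674 CPM in SKG iNKT2 libraries. The subsets did not overlap, by -3.35 ± 0.51 in BALB/c mice, and in SKG mice 43 insertions in iNKT1 stood against 1 in iNKT2 libraries, a ratio of 97.0 (95% interval 16.5 to 3918). The fitted SKG change was -6.15 and moved to -5.4 without SKG iNKT2 replicate 1 and to -8.19 without SKG iNKT2 replicate 3. The intronic region 41.4 kb inside the gene (chr5:53507335-53507729) held 6.18 and 4.85 CPM in BALB/c iNKT1, 8.67 and 11.4 CPM in SKG iNKT1, 1.47, 0.979 and 1.36 CPM in BALB/c iNKT2, and 1.40, 0.597 and 1.08 CPM in SKG iNKT2 libraries. It fell between subsets by -3.25 ± 0.30 in SKG and -2.13 ± 0.29 in BALB/c mice, the latter under the 4-fold mark without BALB/c iNKT1 replicate 1 (-1.90) or BALB/c iNKT2 replicate 2 (-1.89).

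Further into the Rbpj body the direction turned. An intronic region 80.8 kb from the start (chr5:53546806-53547195) rose between BALB/c subsets by 2.21 ± 0.32, from 0.747 and 1.01 CPM to 5.33, 3.52 and 3.22 CPM, and had 1.49, 1.65 and 1.89 CPM in SKG iNKT2 libraries. A region 122 kb from the start (chr5:53588349-53588817) rose between SKG subsets by 2.01 ± 0.23, from 3.21 and 3.98 CPM to 11.3, 15.5 and 17.1 CPM, with 12.1, 16.0 and 14.4 CPM in BALB/c iNKT2 libraries, and lies just before the RefSeq starts. At a UTR region 99.8 kb from the start, SKG iNKT2 libraries (0.981, 0.781 and 1.69 CPM) were below BALB/c iNKT2 libraries (5.71, 3.78 and 3.26 CPM), by a log2 change of -1.94 (adjusted p = 0.000271), which is under the 4-fold mark.

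Hes1 and Hey1, classical repressors induced by Notch, went opposite ways between subsets. At Hes1, 5 of 8 regions were lower and 1 higher in BALB/c iNKT2 cells by adjusted p alone, and 0 passed the 4-fold mark. The start region (chr16:30063959-30064498) held 21.7 and 20.1 CPM in BALB/c iNKT1, 19.1 and 18.8 CPM in SKG iNKT1, 12.4, 10.2 and 13.4 CPM in BALB/c iNKT2, and 16.2, 11 and 12.8 CPM in SKG iNKT2 libraries. Every iNKT1 library was above every iNKT2 library, with a log2 change of -0.80 ± 0.18 in BALB/c mice (adjusted p = 0.00105). The genotypes overlapped at the start in iNKT2 cells.

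A distal Hes1 region did separate the genotypes in both subsets. It lies 39.6 kb upstream of the start (chr16:30024652-30025013), and its levels were 14.0 and 14.4 CPM in BALB/c iNKT1, 4.37 and 4.94 CPM in SKG iNKT1, 8.31, 6.45 and 9.03 CPM in BALB/c iNKT2, and 2.20, 1.88 and 1.62 CPM in SKG iNKT2 libraries. None of the 4 groups overlapped. The log2 change between genotypes was -2.03 ± 0.20 in iNKT2 cells (adjusted p = 4.38e-06) and -1.61 ± 0.23 in iNKT1 cells (adjusted p = 0.000694), and the first fell just under the 4-fold mark without BALB/c iNKT2 replicate 1 (-1.99), BALB/c iNKT2 replicate 3 (-1.99) or SKG iNKT2 replicate 3 (-1.94). A region 24.9 kb upstream of Hes1 had 2.76, 3.49 and 2.84 CPM in BALB/c iNKT2 and 1.37, 1.06 and 0.539 CPM in SKG iNKT2 libraries (log2 change -1.54, adjusted p = 0.00133), against 1.34 and 1.41 CPM in BALB/c iNKT1 and 2.12 and 1.60 CPM in SKG iNKT1 libraries. In iNKT1 cells its genotype change of 0.44 ± 0.37 was not called (adjusted p = 0.638), so an opposite direction there is not shown. The interaction was -1.98 (adjusted p = 0.031), and was called with the replicate block (-2.01, adjusted p = 0.00643), with DESeq2 (-2.07, adjusted p = 0.00841) and without SKG iNKT2 replicate 1 (-2.30, adjusted p = 0.00972).

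Hey1 had the largest share of called higher regions among the 9 genes between BALB/c subsets. All 12 of its regions had positive changes between BALB/c subsets, with 9 called, and all 12 had negative changes between iNKT2 genotypes, with 4 called lower, 7 lower by adjusted p alone and a median log2 change of -1.35. Its start region (chr3:8666969-8668266) was open in every library, with 87.9 and 89.3 CPM in BALB/c iNKT1, 91.3 and 98.9 CPM in SKG iNKT1, 90.1, 123 and 141 CPM in BALB/c iNKT2, and 90.7, 130 and 131 CPM in SKG iNKT2 libraries. Genotypes overlapped at the start in iNKT2 cells (log2 change -0.01), and replicate 1 was the lowest of both iNKT2 groups.

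The Hey1 regions called lower in SKG iNKT2 cells were near closed outside BALB/c iNKT2 cells. A region is listed when it was found open in any library, so low levels elsewhere follow partly from how regions were chosen. Downstream of the gene, 4.97 kb from its start (chr3:8662130-8662452), the levels were 0.0597 and 0.220 CPM in BALB/c iNKT1, 0.128 and 0.192 CPM in SKG iNKT1, 3.80, 4.07 and 5.19 CPM in BALB/c iNKT2, and 0.624, 0.321 and 0.0674 CPM in SKG iNKT2 libraries. BALB/c iNKT2 libraries were above all others. The log2 change between iNKT2 genotypes was -3.46 ± 0.42 (adjusted p = 2.75e-05, and -4.30 without SKG iNKT2 replicate 1), and between BALB/c subsets it was 5.04 ± 0.57 (4.30 without BALB/c iNKT1 replicate 1 and 6.07 without replicate 2). Between SKG subsets the change of 1.25 was not called (adjusted p = 0.2).

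Upstream of Hey1, 3 called regions lay side by side. The first, 31.2 kb upstream (chr3:8698334-8698662), held 0.0597 and 0 CPM in BALB/c iNKT1, 0.0642 and 0.128 CPM in SKG iNKT1, 2.23, 2.57 and 2.97 CPM in BALB/c iNKT2, and 0.0297, 0.0918 and 0.270 CPM in SKG iNKT2 libraries. Again only the BALB/c iNKT2 libraries stood out, by -4.57 ± 0.55 between iNKT2 genotypes (adjusted p = 2.76e-05, with -3.91 without SKG iNKT2 replicate 1 and -5.44 without replicate 3). Between BALB/c subsets 240 insertions in iNKT2 stood against 2 in iNKT1 libraries, a ratio of 71.7 (95% interval 19.6 to 596), and the fitted change of 6.01 moved to 8.99 and 5.32 without BALB/c iNKT1 replicates 1 and 2.

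The second, 32.7 kb upstream (chr3:8699767-8700071), held 0.179 and 0.0441 CPM in BALB/c iNKT1, 0.0642 and 0.192 CPM in SKG iNKT1, 2.85, 1.01 and 2.19 CPM in BALB/c iNKT2, and 0.119, 0 and 0 CPM in SKG iNKT2 libraries. The change between iNKT2 genotypes was -5.07 ± 0.74 (adjusted p = 0.000161, and -8.60 without SKG iNKT2 replicate 1), and between BALB/c subsets it was 3.99 ± 0.74 (5.4 without BALB/c iNKT1 replicate 1). The third, 33.2 kb upstream (chr3:8700333-8700657), had 0.209 and 0.0882 CPM in BALB/c iNKT1, 0.128 and 0.0642 CPM in SKG iNKT1, 1.63, 2.22 and 1.40 CPM in BALB/c iNKT2, and 0.0891, 0.230 and 0.472 CPM in SKG iNKT2 libraries, and differed between iNKT2 genotypes by -2.92 ± 0.52 (adjusted p = 0.00079). At these 3 upstream regions and the downstream one, SKG iNKT2 libraries ranged from 0 to 0.624 CPM. The interaction was not called with edgeR at the downstream region (-3.79, adjusted p = 0.0916) or at the first and second upstream regions (-5.90, adjusted p = 0.0553, and -5.14, adjusted p = 0.0944), and DESeq2 called it at all 3 (adjusted p of 0.00972, 0.00516 and 0.00959).

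Not every Hey1 element followed this course. The region 50.3 kb upstream of the start (chr3:8717249-8717909) held 4.24 and 2.12 CPM in BALB/c iNKT1, 1.41 and 1.80 CPM in SKG iNKT1, 20.2, 23.4 and 25.9 CPM in BALB/c iNKT2, and 10.8, 11.2 and 13.7 CPM in SKG iNKT2 libraries. It opened in iNKT2 cells of both genotypes, by 2.84 ± 0.26 in BALB/c mice (3.48 without BALB/c iNKT1 replicate 1) and 2.88 ± 0.30 in SKG mice, and the genotype difference in iNKT2 cells was -0.97 ± 0.20 (adjusted p = 0.00243). The region 31.8 kb downstream (chr3:8635082-8635772) rose by 2.19 ± 0.21 and 2.10 ± 0.22 in BALB/c and SKG mice, with 16.7, 21.3 and 19.4 CPM in BALB/c iNKT2 and 13.0, 16.6 and 17.5 CPM in SKG iNKT2 libraries, which overlapped. A coding-exon region 1.41 kb from the start had 8.66, 10.8 and 12.1 CPM in BALB/c iNKT2 against 2.44, 2.99 and 4.38 CPM in SKG iNKT2 libraries, a log2 change of -1.72 (adjusted p = 5.82e-05) that did not reach 4-fold.

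**Figure D3:**
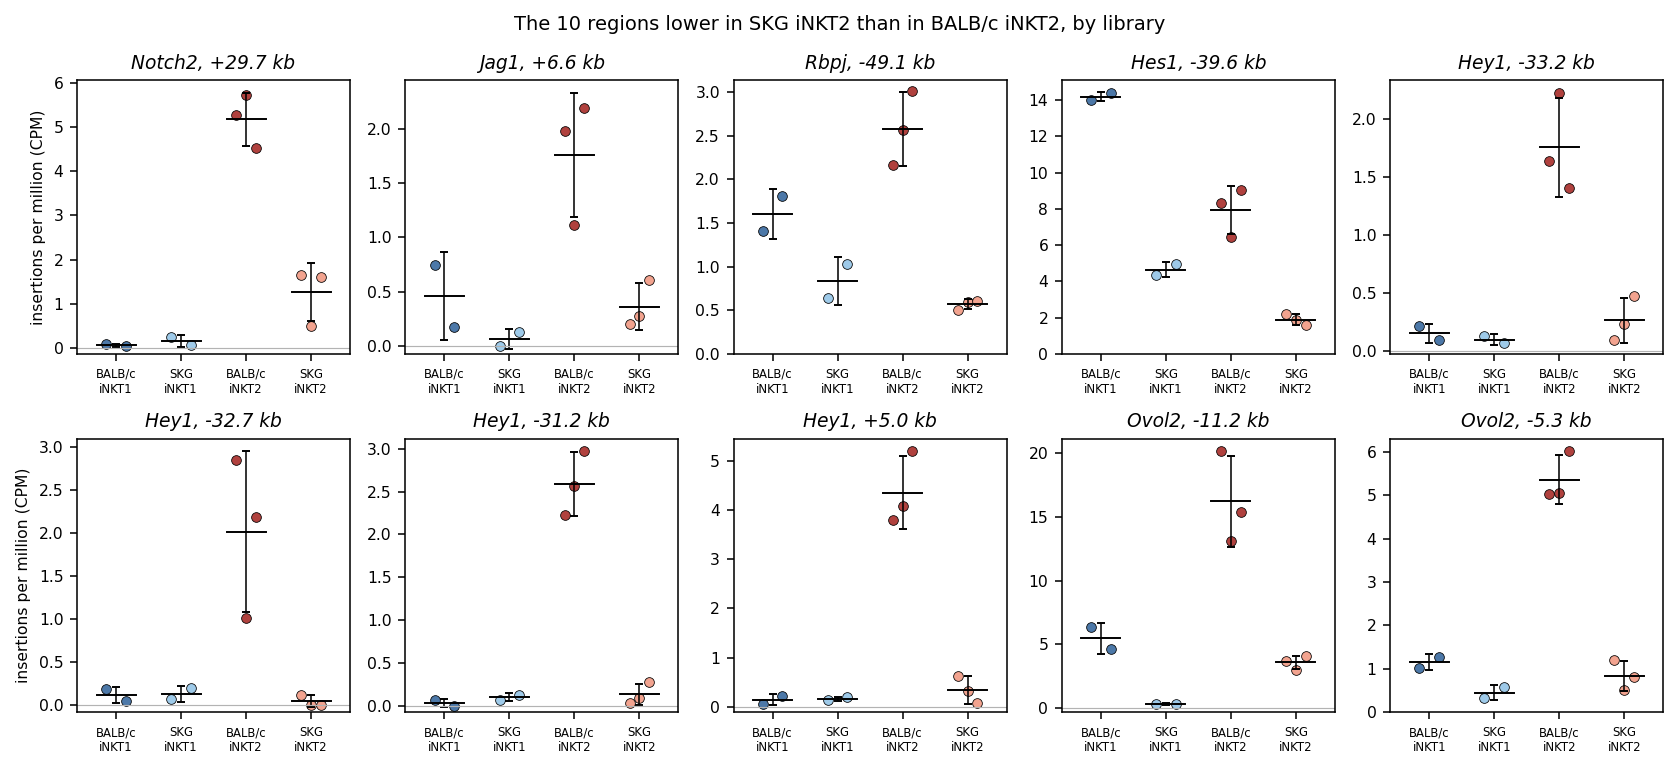
CPM in each library (points) of the 10 member regions called lower in SKG than in BALB/c iNKT2 cells, 1 panel per region with its own linear vertical axis, with the group mean as a line and the SD as a bar (n = 2, 2, 3 and 3). In each panel the 3 BALB/c iNKT2 libraries lie above the 3 SKG iNKT2 libraries. At the Hes1, Jag1, Rbpj and both Ovol2 regions the BALB/c iNKT1 libraries lie above the SKG iNKT1 libraries as well. Among these, only the more distal Ovol2 region was called in iNKT1 cells.

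Ovol2 was the only member with a genotype call in both subsets. Its region 11.2 kb upstream of the start (chr2:144343079-144343555) held 6.33 and 4.58 CPM in BALB/c iNKT1, 0.257 and 0.321 CPM in SKG iNKT1, 20.2, 13.1 and 15.4 CPM in BALB/c iNKT2, and 3.66, 2.99 and 4.05 CPM in SKG iNKT2 libraries. None of the 4 groups overlapped, and SKG libraries were lower in both subsets. The log2 change between genotypes was -4.22 ± 0.40 in iNKT1 cells (adjusted p = 2.48e-05) and -2.19 ± 0.21 in iNKT2 cells (adjusted p = 3.57e-06), the former lost under limma-voom with quantile normalization (-3.23, adjusted p = 0.0307). Between subsets it rose by 3.59 ± 0.40 in SKG mice and by 1.56 in BALB/c mice. The interaction of 2.03 had an adjusted p of 0.0309 without the block and 0.00501 with the replicate block.

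The nearer Ovol2 region, 5.27 kb upstream (chr2:144337243-144337587), was lower in SKG iNKT2 cells too. It held 1.02 and 1.28 CPM in BALB/c iNKT1, 0.321 and 0.577 CPM in SKG iNKT1, 5.02, 5.05 and 6.02 CPM in BALB/c iNKT2, and 1.19, 0.505 and 0.809 CPM in SKG iNKT2 libraries. BALB/c iNKT2 libraries were above all others, by -2.62 ± 0.29 between iNKT2 genotypes (adjusted p = 1.37e-05) and 2.23 ± 0.32 between BALB/c subsets. Nearest to the Ovol2 start, a coding-exon region 908 bp away (chr2:144330658-144331238) had 3.64 and 3.97 CPM in BALB/c iNKT1, 1.93 and 2.76 CPM in SKG iNKT1, 5.99, 7.99 and 7.59 CPM in BALB/c iNKT2, and 3.80, 4.87 and 4.45 CPM in SKG iNKT2 libraries. SKG libraries were below BALB/c libraries in both subsets, and in iNKT2 cells the change of -0.72 missed the threshold (adjusted p = 0.0135).

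Dtx1, the regulator of the pathway, was the one member whose regions tended to be higher in SKG cells. Between BALB/c subsets 10 of its 17 regions were lower in iNKT2 cells by adjusted p alone and 7 were neither lower nor higher. Among the latter, an intronic region 25.9 kb from the start had means of 16.9 CPM in iNKT1 and 18.5 CPM in iNKT2 cells of BALB/c mice. In BALB/c mice 7 of its 17 regions were called lower in iNKT2 cells, and in SKG mice 6. Of the 7, 4 overlapped the Dtx1 body, 2 lay in the body of Rasal1 and 1 in an Oas gene, so that those 3 may belong to another gene. Between genotypes 14 of 17 regions had positive changes in each subset, and 0 were called. By adjusted p alone 2 Dtx1 regions were higher in SKG iNKT2 cells.

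Nearest to the Dtx1 start, a UTR region 62 bp from it (chr5:120711533-120711865) held 15.7 and 16.4 CPM in BALB/c iNKT1, 23.8 and 22.8 CPM in SKG iNKT1, 9.72, 8.44 and 10.6 CPM in BALB/c iNKT2, and 14.8, 15.6 and 12.7 CPM in SKG iNKT2 libraries. SKG libraries were above BALB/c libraries in both subsets, and iNKT1 libraries above the iNKT2 libraries of their own genotype. The change between iNKT2 genotypes was 0.59 ± 0.14 (adjusted p = 0.00717), that between iNKT1 genotypes was 0.54 ± 0.17 (adjusted p = 0.0947), and those between subsets were -0.74 ± 0.16 in BALB/c (adjusted p = 0.000798) and -0.69 in SKG mice (adjusted p = 0.00201). The other region that was higher in SKG iNKT2 cells by adjusted p, an intronic one 14.8 kb from the start, had 2.13, 1.90 and 2.27 CPM in BALB/c and 5.41, 3.90 and 3.37 CPM in SKG libraries (log2 change 1.04, adjusted p = 0.00314).

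Inside the Dtx1 body the fall between subsets was steep. The intronic region 23.3 kb from the start (chr5:120688386-120688772) held 20.2 and 15.1 CPM in BALB/c iNKT1, 30.5 and 29.6 CPM in SKG iNKT1, 4.70, 3.76 and 4.70 CPM in BALB/c iNKT2, and 6.12, 8.04 and 4.11 CPM in SKG iNKT2 libraries. Subsets did not overlap, and the changes were -2.29 ± 0.22 in SKG mice (adjusted p = 8.26e-07) and -2.02 ± 0.22 in BALB/c mice (adjusted p = 2.01e-06), a value so near the 4-fold mark that 9 of the alternatives took it under, among them the replicate block (-1.92). At the intronic region 2.72 kb from the start (chr5:120709056-120709355), the levels were 1.16 and 0.661 CPM in BALB/c iNKT1, 3.08 and 2.50 CPM in SKG iNKT1, 0.0941, 0.0529 and 0 CPM in BALB/c iNKT2, and 0.297, 0.276 and 0.472 CPM in SKG iNKT2 libraries. None of the 4 groups overlapped there, with changes between subsets of -4.01 ± 0.64 in BALB/c mice (-4.64 without BALB/c iNKT2 replicate 1) and -3.04 ± 0.50 in SKG mice. Its change of 2.56 ± 0.70 between iNKT2 genotypes was not called (adjusted p = 0.0138), whereas DESeq2 (2.64) and limma-voom with quantile normalization (3.20) called it.

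A called region 42.5 kb upstream of Dtx1 (chr5:120754200-120754587) lay in the body of Oas3, an interferon-induced gene. It held 6.27 and 5.91 CPM in BALB/c iNKT1, 8.29 and 7.12 CPM in SKG iNKT1, 0.816, 0.0529 and 0.0412 CPM in BALB/c iNKT2, and 0.446, 0.184 and 0.202 CPM in SKG iNKT2 libraries. Replicate 1 was the highest of both iNKT2 groups. The changes between subsets were -4.28 ± 0.56 in BALB/c mice (-6.82 without BALB/c iNKT2 replicate 1 and -3.62 without replicate 2) and -4.64 ± 0.59 in SKG mice (-5.29 without SKG iNKT2 replicate 1).

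Regions at transcription starts gave no call. Notch1 and Rbpj had no region at their GENCODE starts. At the RefSeq starts, chosen after these data were seen, Notch1 had mean levels of 55.9, 56.8, 39.4 and 49.0 CPM, and Rbpj 67.6, 65.8, 59.3 and 70.8 CPM, in BALB/c iNKT1, SKG iNKT1, BALB/c iNKT2 and SKG iNKT2 cells. None of the 7 regions at or near GENCODE starts was called in any of the 4 comparisons, and none of the 10 lower regions in SKG iNKT2 cells was among them.

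Summed over all regions of a gene, accessibility was compared for 18111 protein-coding loci with the same test and an adjusted p under 0.01. Between BALB/c subsets 6 of the 9 loci changed: Notch2, Notch3 and Hey1 were higher in iNKT2 cells, and Notch1, Hes1 and Dtx1 were lower, where 13.3% of all loci were higher and 40.9% lower. The median log2 change over all loci was -0.25 between BALB/c subsets and -0.11 between SKG subsets. Between genotypes it was 0.03 in iNKT1 and 0.17 in iNKT2 cells. The locus changes below are to be read beside these medians. The Hey1 locus held 114 and 112 CPM in BALB/c iNKT1, 111 and 121 CPM in SKG iNKT1, 168, 214 and 239 CPM in BALB/c iNKT2, and 135, 184 and 191 CPM in SKG iNKT2 libraries. All BALB/c iNKT2 libraries were above all iNKT1 libraries, by 0.87 ± 0.17 (adjusted p = 0.00122). The Notch2 locus changed by 0.45 ± 0.07 (adjusted p = 0.000261), and held 112 and 107 CPM in BALB/c iNKT1, 114 and 114 CPM in SKG iNKT1, 148, 150 and 152 CPM in BALB/c iNKT2, and 136, 134 and 139 CPM in SKG iNKT2 libraries.

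At the Dtx1 locus the sums were 92.9 and 88.8 CPM in BALB/c iNKT1, 145 and 146 CPM in SKG iNKT1, 50.8, 46.2 and 50.6 CPM in BALB/c iNKT2, and 70.7, 65.8 and 53.7 CPM in SKG iNKT2 libraries. None of the 4 groups overlapped. The change between subsets was -0.89 ± 0.11 in BALB/c (adjusted p = 8.62e-05) and -1.20 ± 0.11 in SKG mice (adjusted p = 2.87e-05). The Hes1 locus changed by -0.68 ± 0.10 in BALB/c mice (adjusted p = 0.000173) and -0.54 ± 0.10 in SKG mice (adjusted p = 0.00163), the Notch1 locus by -0.70 ± 0.14 in BALB/c mice (adjusted p = 0.00112), and the Notch3 locus by 0.61 ± 0.15 in BALB/c mice (adjusted p = 0.00439) and 1.02 ± 0.16 in SKG mice (adjusted p = 0.000706). In SKG mice 3 loci were called (Notch3 higher, Hes1 and Dtx1 lower), where 8.47% of all loci were higher and 20.2% lower. That count ran from 1 (without SKG iNKT1 replicate 1) to 6 (without SKG iNKT2 replicate 1), and was 6 with the replicate block. The Notch1 call in BALB/c mice was lost when replicate 1 of BALB/c iNKT1 or replicate 2 or 3 of BALB/c iNKT2 was left out, and under library totals without TMM (-0.42) or quantile normalization (-0.41). That of Notch3 was lost without either BALB/c iNKT1 library (adjusted p = 0.0372 and 0.0185), without replicate 2 of BALB/c iNKT2 (0.0105) and under quantile normalization (0.08, adjusted p = 0.642), and that of Hey1 without replicate 2 of BALB/c iNKT1 (0.0134). In SKG mice the Notch3 call was lost without replicate 1 of SKG iNKT1 (adjusted p = 0.0139) and under quantile normalization (0.66, adjusted p = 0.0189), and the Hes1 call without either SKG iNKT1 library (adjusted p = 0.018 and 0.0155), without TMM (-0.36) and under quantile normalization (-0.38).

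Between genotypes 0 of the 9 loci passed in either subset, where 0.652% of all loci passed in iNKT1 and 18.1% in iNKT2 cells. At an unadjusted p under 0.05 there were 4 in iNKT1 and 3 in iNKT2 cells, and DESeq2 called 2 (Dtx1 and Jag1) and 3 (Dtx1, Jag1 and Notch2). Shares of all loci by these rules are not given here, so the counts cannot be read as particular to the members. The Jag1 locus held 113 and 127 CPM in BALB/c iNKT1, 44.1 and 52.4 CPM in SKG iNKT1, 122, 151 and 167 CPM in BALB/c iNKT2, and 53.3, 104 and 91.5 CPM in SKG iNKT2 libraries. Its genotypes did not overlap in either subset, by -1.31 ± 0.27 in iNKT1 (adjusted p = 0.0364) and -0.83 ± 0.21 in iNKT2 cells (adjusted p = 0.0139). For Dtx1 the changes were 0.68 ± 0.12 in iNKT1 (adjusted p = 0.0207) and 0.37 ± 0.10 in iNKT2 cells (adjusted p = 0.0185). With the replicate block 5 loci were called between the iNKT2 genotypes: Jag1 (-0.87), Hey1 (-0.29) and Ovol2 (-0.27) lower in SKG cells, and Dtx1 (0.37) and Notch1 (0.23) higher. The share of all loci called by that fit is not given here, so this count cannot be read as particular to the members. In that fit the median log2 change over all loci was 0.17. Most of the Ovol2 sum came from a region in the body of Kat14 and Pet117, which may belong to another gene. In BALB/c iNKT1, SKG iNKT1, BALB/c iNKT2 and SKG iNKT2 cells its means were 60.8, 70.7, 59.2 and 64.7 CPM. The locus means were 85.9, 93.1, 105 and 87.9 CPM.

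**Figure D4:**
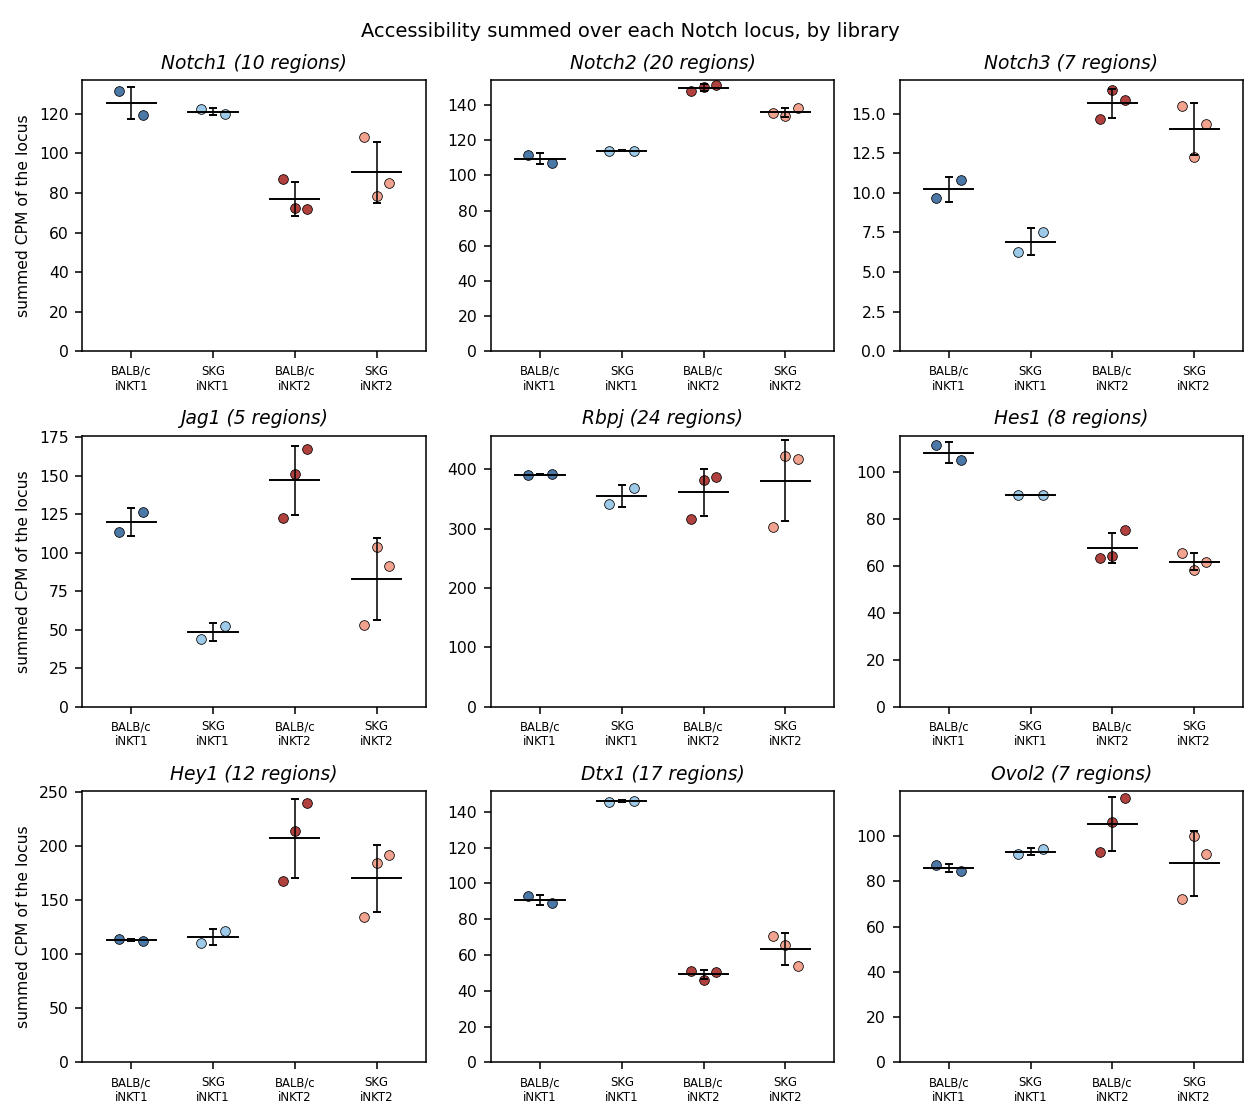
Summed CPM of all regions of each member gene in each library (points, linear vertical axis), 1 panel per gene, with group means as lines and SD as bars (n = 2, 2, 3 and 3). Hey1 and Notch2 are higher and Dtx1 and Hes1 lower in iNKT2 cells, and Jag1 is lower in SKG libraries of both subsets.

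Across 12409 genes with a region at their start, those whose log2 CPM over the 10 libraries was among the most like a member's are given by Pearson's r as a description, since the libraries share subset, genotype and replicate structure. They were Slmap and Prkab2 for Notch2 (both 0.969), Stac2 (0.891) and Igf2bp2 (0.882) for Notch3, and Svip (0.940) for Jag1. For the targets they were Unkl (0.987) and Clk3 (0.974) for Hes1 and Trim68 (0.991) and Cst3 (0.989) for Hey1. For Dtx1 they were Rrp12 (0.986) and Tle3 (0.979), and for Ovol2 Galnt14 and Zc2hc1a (both 0.986).

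A further 45 genes of the pathway (other ligands, the fourth receptor, the Mastermind-like co-activators and other nuclear partners, enzymes that process or glycosylate the receptor, regulators and further targets) had 654 regions under the same rule. Between BALB/c subsets 63 of these (9.63%) were called higher in iNKT2 cells and 41 (6.27%) lower, between SKG subsets 56 (8.56%) and 32 (4.89%), between iNKT1 genotypes 0 were higher and 8 (1.22%) lower in SKG mice, and between iNKT2 genotypes 2 (0.306%) were higher and 20 (3.06%) lower. Over all regions the shares were, in the same order, 15.5% and 6.36%, 10.2% and 6.96%, 0.281% and 0.732%, and 0.252% and 4.73%, so that most of these shares were near or below the background. The nuclear complex held 33 higher and 9 lower regions of 147 between BALB/c subsets, and 12 that were lower in SKG iNKT2 cells. Of the 33, 16 were at Maml3 and 13 at Maml2, and of the 12, 10 were at Maml3. Of 64 regions of the ligand genes 8 were higher and 0 lower between BALB/c subsets, and 5 of the 8 were at Dlk1. Of 135 regions of the processing enzymes 4 were higher and 18 lower, and 14 of the 18 were at Furin alone.

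The regions with the smallest p of this wider list spanned several roles in the pathway. Near Furin, the protease that matures the receptor, a region (chr7:80452863-80453283) held 10.3 and 10.3 CPM in BALB/c iNKT1, 6.62 and 5.97 CPM in SKG iNKT1, 0, 0.0794 and 0.206 CPM in BALB/c iNKT2, and 0.297, 0.184 and 0.202 CPM in SKG iNKT2 libraries, a log2 change of -6.82 ± 0.41 between BALB/c subsets (adjusted p = 9.87e-09). Other calls in that comparison were Nrarp, a feedback inhibitor (-6.34 ± 0.47), the co-activators Maml2 (-3.20 ± 0.21) and Maml3 (5.85 ± 0.42), and Mib1, the ubiquitin ligase that makes ligands active (3.97 ± 0.26). Between iNKT2 genotypes, a region at Neurl1a, another ligand-directed ubiquitin ligase, held 0.358 and 0.485 CPM in BALB/c iNKT1, 0 and 0.0642 CPM in SKG iNKT1, 10.7, 5.29 and 9.15 CPM in BALB/c iNKT2, and 0.0891, 0.0918 and 0.0674 CPM in SKG iNKT2 libraries (log2 change -6.54 ± 0.43, adjusted p = 1.45e-07). BALB/c iNKT2 libraries alone were open there, as at the Hey1 regions called lower in SKG iNKT2 cells. A region at Heyl, a relative of Hey1, had 7.21, 8.39 and 7.34 CPM in BALB/c and 1.13, 0.276 and 0.674 CPM in SKG iNKT2 libraries (-3.37 ± 0.33, adjusted p = 4.75e-06). Regions at Maml3 (-2.58 ± 0.27) and Maml2 (-2.92 ± 0.44) were lower in SKG cells as well, whereas a second Furin region was higher (2.16 ± 0.33, adjusted p = 0.000196), with 0.376, 0.873 and 0.536 CPM in BALB/c and 2.88, 2.53 and 2.76 CPM in SKG iNKT2 libraries.

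The DNA of the member regions was searched on both strands for 7 motifs in the central window of up to 300 bases. A window was counted once per motif, and matches of different motifs were allowed to overlap. RBPJ letters (TGGGAA) were in 30 of the 110 member windows (27.3%) and 21.3% of all regions, NFAT letters (TGGAAA) in 16 (14.5%) and 23.4%, and RUNX letters (TGTGGT) in 29 (26.4%) and 30.3%. For the E box (CAGCTG) the counts were 22 (20.0%) and 17.4%, for T-box factors (GGTGTGA) 6 (5.45%) and 5.48%, for TCF/LEF (CTTTGAA) 8 (7.27%) and 7.74%, and for Egr factors (GTGGGCG) 4 (3.64%) and 4.72%. Among the 10 regions lower in SKG iNKT2 cells, NFAT letters were in 2, both of them upstream of Hey1 (32.7 and 33.2 kb), RUNX letters in 2 (the Ovol2 region at 11.2 kb and the Rbpj region at 49.1 kb), and RBPJ letters in 1, the Hes1 region. The Hey1 region at 31.2 kb held a T-box and an E box match, and no motif of the 7 was found in the downstream Hey1 window or in the Notch2, Jag1 and nearer Ovol2 windows. Of the 9 regions lower between BALB/c subsets, 6 held RUNX, 5 RBPJ, 3 T-box and 2 E box letters, and 0 held NFAT, Egr or TCF/LEF letters. Of the 20 that were higher, 5 held E box, 4 RUNX, 4 NFAT and 3 TCF/LEF letters, and 1 each RBPJ, T-box and Egr letters. The median GC content was 49.0% over all regions, 53.7% over the members and 47.8% over the 10 regions lower in SKG iNKT2 cells. It was 56.7% over the 9 lower and 47.0% over the 20 higher regions between BALB/c subsets. A match is a run of letters and not a bound site.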

How the data were processed

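ATAC-seq was carried out by the authors on sorted thymic iNKT cells: nuclei were treated with Nextera transposase and sequenced as paired ends. By the study's methods and the processing notes of the submitters, the authors aligned reads with Bowtie 1.0 to mm10 (Trim Galore for reads that did not align), removed duplicates with Picard and mitochondrial reads, called summits with MACS2 per replicate, merged these into 1 region set without the Y chromosome and blacklisted regions, and counted insertions per region. The deposited table is named for normalized values, but its values are whole numbers with a different total in each library and were used as raw counts of insertions. Since regions come from all libraries together, a region closed in a group is still measured there. A region open in a single group can enter the set through that group alone, so its low levels elsewhere follow partly from this choice.

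Counts were compared with edgeR 4.0.16 in R 4.3.3 (TMM scaling, quasi-likelihood F test, 1 mean per group, all 10 libraries), without a filter on low counts. Regions were called at an adjusted p under 0.01 and a 4-fold difference. For loci, counts were summed over regions by the same rule for 18111 protein-coding genes and called at an adjusted p under 0.01. Pairwise contrasts between BALB/c and SKG iNKT2 cells share libraries with the contrasts between subsets. Values are CPM after TMM scaling, and a level from few insertions is imprecise: intervals on ratios cover counting error only. The procedure was tested on simulated data.

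Replicate numbers were checked as pairs by correlating deviations from group means. BALB/c and SKG iNKT2 libraries with the same number gave r of 0.492, 0.165 and 0.202, each over 0.1, so that contrast was taken as possibly paired. Its main values and calls come from the fit without a block, and the fit with the number as a block is an alternative. The data set only replicate 1 apart: BALB/c replicate 2 with SKG replicate 3 gave 0.180, and BALB/c replicate 3 with SKG replicate 2 gave 0.278. The BALB/c subsets gave 0.145 and 0.107 in 2 pairs, also over 0.1, and the iNKT1 genotypes -0.00599. No contrast but that of the iNKT2 genotypes was taken as possibly paired. No 2 libraries agreed within counting noise.

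Named regions were those at each start, the called region of smallest adjusted p per gene and comparison, the 3 largest called changes per comparison and direction, and interaction calls. From the 45 further genes, 5 regions were named for each of 2 comparisons. Regions that passed by adjusted p alone, or that lay beside a named region, were chosen after their values were seen. The members and lists were chosen with earlier results of these data known. Alternatives were library totals without TMM, limma-voom 3.58.1 with quantile or TMM normalization, DESeq2 1.42.0, a filter at the lower quartile, only the groups compared, the replicate block, each library left out, other thresholds, a 10 kb window and RefSeq starts. Of the genes most like a member and of the marker lists, 1 gene each is not reported here.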

Additional observations from a re-analysis of the deposited data

How the results depend on the processing

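No called change of a named region or locus reversed direction under any alternative run, whereas some that were not called changed sign, such as the Rbpj locus between BALB/c subsets (from -0.11 to 0.31 under quantile normalization) and the Notch3 locus between iNKT2 genotypes (from -0.16 to 0.19). With an adjusted p under 0.05 and a 2-fold difference, the calls between BALB/c subsets went from 29 (20 higher, 9 lower) to 49 (33 and 16), between SKG subsets from 19 (9 and 10) to 40 (25 higher), between iNKT1 genotypes from 1 to 8 (1 and 7), between iNKT2 genotypes from 10 to 29 (4 and 25), and for the interaction from 0 to 5. By adjusted p alone they were 55 (32 and 23), 43 (24 and 19), 5 (all lower) and 27 (3 and 24). With a 10 kb window they were 18 (13 and 5), 10 (5 and 5), 0 and 4 (all lower). With a filter at the lower quartile, which tests fewer regions, they were 15 (10 and 5) between BALB/c subsets and 6 (all lower) between iNKT2 genotypes. Library totals without TMM left 4 lower regions between BALB/c subsets, and a fit of the compared groups only left 5 and gave 2 between iNKT1 genotypes (both lower). Limma-voom with quantile normalization called 11 higher between BALB/c subsets, 5 higher between SKG subsets, 0 between iNKT1 genotypes and 2 higher between iNKT2 genotypes, and limma-voom with TMM 5 higher between SKG subsets. DESeq2 called 1 higher between iNKT2 genotypes and 4 interactions. Except by adjusted p alone, the shares of all regions under these alternatives are not given here. Changes in these counts can therefore not be read as particular to the members.

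Leaving out each library in turn gave 4 to 9 lower regions between BALB/c subsets, 8 to 12 lower regions between iNKT2 genotypes and 0 to 2 interactions. The same gave 1 to 6 loci between SKG subsets, 0 to 2 between iNKT1 genotypes and 0 to 1 between iNKT2 genotypes.

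With the replicate block the interaction had 2 calls. Locus calls went from 3 to 6 between SKG subsets, from 0 to 2 between iNKT1 genotypes and from 0 to 5 between iNKT2 genotypes. Only the last of these contrasts was taken as possibly paired. The block kept all 10 calls between iNKT2 genotypes. For the locus sums, DESeq2 gave 6, 2 and 3 calls in these 3 contrasts, an adjusted p under 0.05 gave 7, 2 and 2, no TMM gave 5 between SKG subsets and 1 between iNKT2 genotypes, limma-voom with quantile normalization gave 2 between iNKT2 genotypes, and a fit of the compared groups only gave 3 between iNKT1 genotypes. The causes of these moves were not tested, except that fewer regions or libraries enter some fits. Shares of all loci in these alternative fits are not given here, so the counts cannot be read as particular to the members. The median log2 change over all regions was 0.34, 0.32, -0.06 and -0.12 in the 4 contrasts without TMM, against 0.06, 0.14, -0.03 and 0.01 with it. With 2 iNKT1 libraries per genotype, low levels there rest on few insertions.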
